A study of Mus musculus with 12 samples.

Results

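Oesophageal epithelium that carried an active IKKβ together with the Stat3 knockout was set against epithelium of Control mice. Of the 12 libraries of the study, 6 belong to this comparison: the 3 labelled Ikkβca+Stat3KO and the 3 labelled Control. Read counts per gene were available for 23337 gene symbols, and the 14134 that passed a filter on low counts were tested. All animals were C57BL/6 mice of 6 weeks, and RNA was taken from epithelium that had been peeled mechanically off the stroma. Ikkβca+Stat3KO mice carry ED/L2-Cre+ with both conditional alleles, ROSA26-StopFL-Ikk2ca+/L for the active kinase and Stat3L/L for the knockout. Ikkβca mice carry ED/L2-Cre+ and ROSA26-StopFL-Ikk2ca+/L, and Stat3KO mice carry ED/L2-Cre+ and Stat3L/L. Control mice carry ROSA26-StopFL-Ikk2ca+/L as well as Stat3L/L but no Cre. Cre is expressed from the Epstein-Barr virus ED/L2 promoter, which is active in oesophageal epithelial cells, and Cre itself therefore differs between Ikkβca+Stat3KO and Control along with the alleles. Whether each library is its own animal is not stated, so p-values measure the spread between libraries. In whole tissue, fewer cells of a type and less RNA per cell cannot be told apart.

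IKKβ is the kinase that marks IκB proteins for destruction, which frees NF-κB dimers to enter the nucleus and switch on inflammatory genes and their own inhibitors. STAT3 is the transcription factor that IL-6 family receptors activate through JAK kinases, and in squamous epithelium it is known for roles in proliferation and wound repair. The oesophageal lining is a stratified epithelium in which basal cells, marked by Krt5 and Krt14, divide and give rise to suprabasal cells, marked by Krt4 and Krt13.

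Depth was 14.8 to 21.4 M counts in the Ikkβca+Stat3KO libraries and 16.3 to 30.2 M in the Control libraries. Replicate 1 was female and replicates 2 and 3 were male in every group, as read from Xist and Y-linked genes. Replicate 1 of a group thus cannot share an animal with replicates 2 and 3, while whether these come from separate animals is not stated. Krt4 and Krt13 together took 11.6, 4.05 and 13.4% of counts in Ikkβca+Stat3KO replicates 1 to 3, against 5.23, 6.22 and 13.9% in Control replicates 1 to 3. The first principal component of these 6 libraries (36.5% of the variance) divided them by this share and not by genotype, while the second (28.8%) held all 3 Ikkβca+Stat3KO libraries below all 3 Control libraries. Squamous markers were abundant in both groups, with Krt5 at 8673, 13070 and 9000 CPM (counts scaled to library size with TMM factors) in Ikkβca+Stat3KO and 13060, 16090 and 9908 CPM in Control.

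The targeted genes were read first. Stat3 (chromosome 11, 100885098 to 100939540, minus strand, mm10) stood at 169.9, 154 and 194 CPM in Ikkβca+Stat3KO libraries, against 174, 157 and 179 CPM in Control libraries. The groups overlapped, with a log2 fold change of 0.02 ± 0.15 (SE; edgeR adjusted p = 0.988). Counts summed over a whole gene include exons that a conditional deletion leaves in place, and the labels do not say which exons are floxed, so the level neither bears out nor contradicts the label, and the group names below are those of the labels. Ikbkb (chromosome 8, 22659212 to 22706589, minus strand), which encodes IKKβ, had 89.8, 83.4 and 97.0 CPM in Ikkβca+Stat3KO against 82.6, 60.7 and 59.7 CPM in Control. Every Ikkβca+Stat3KO library was above every Control library, but the difference of 0.41 ± 0.14 did not pass (edgeR adjusted p = 0.242).

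At an adjusted p below 0.05 (edgeR quasi-likelihood test, Benjamini-Hochberg), 80 genes rose (0.566% of genes tested) and 45 fell (0.318%) in Ikkβca+Stat3KO epithelium. These shares are the background of every count of called list members against Control below. The rises included inhibitors and subunits of NF-κB, chemokines, defence proteins and the keratins Krt10 and Krt16. Of the falls, 25 were genes of DNA replication, nucleotide supply and repair. Rises reached further than falls: 65 of the 80 were at least 2-fold and 25 at least 8-fold, while 35 of the 45 falls were at least 2-fold and 6 at least 4-fold. The median log2 fold change was 1.93 among the genes that rose, -1.40 among those that fell and 0.002 over all genes tested. All 125 called genes had groups that did not overlap, which was also the case for 1018 of all tested genes in the higher direction (7.2%) and 1109 in the lower (7.85%). DESeq2 called 434 genes, 221 higher and 213 lower, among them all 125.

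**Figure D1:**
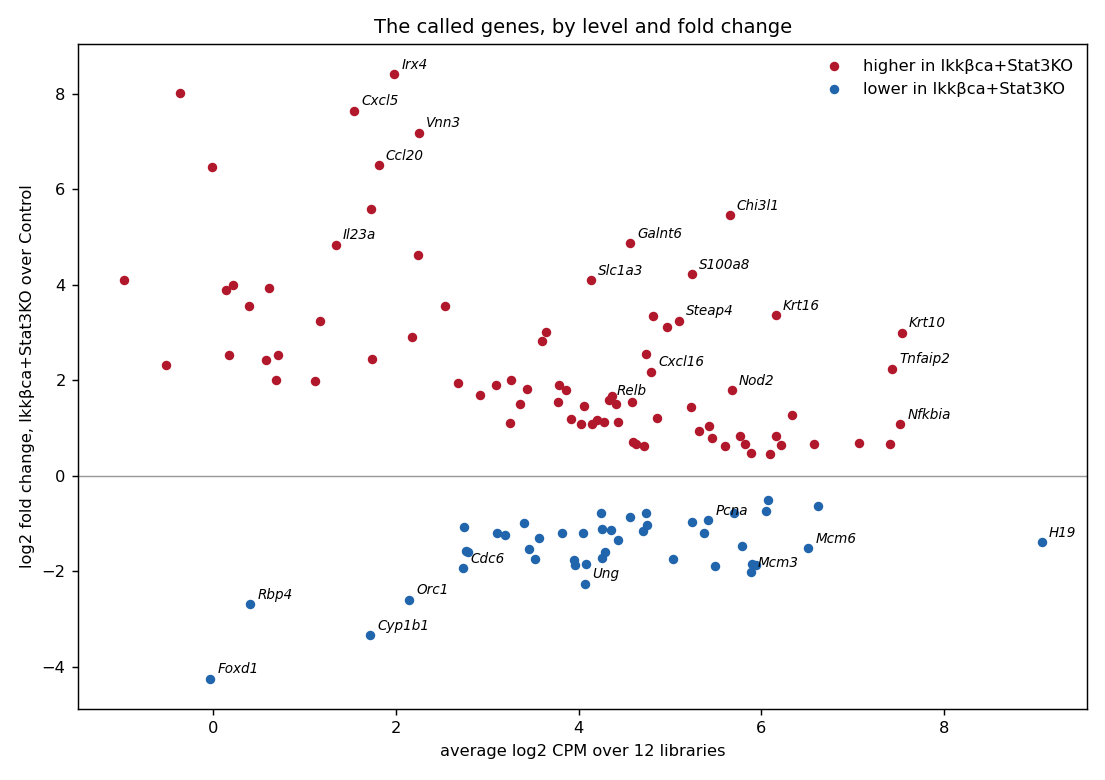
Each point is 1 of the 125 called genes, plotted by its average log2 CPM over 12 libraries (horizontal axis) and its log2 fold change, Ikkβca+Stat3KO over Control (vertical axis); red points rose and blue points fell. The largest rises, such as Irx4 at 8.41 and Cxcl5 at 7.65, lie at low to middle levels. Of the abundant genes, Nfkbia (1.07) and H19 (-1.40) moved less, and Krt10 (3.0) and Tnfaip2 (2.24) lie between.

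The number of calls rested on single libraries. It was 43 without Control replicate 2 and 43 without Ikkβca+Stat3KO replicate 3. It was 55 without Control replicate 1 and 81 without Ikkβca+Stat3KO replicate 1, and 14, all of them higher, when only these 6 libraries were fitted. With the Krt4 and Krt13 share of each library as a term, an alternative chosen after seeing the data, 432 genes were called, 244 higher and 188 lower, and all 125 were among them. Of the 48 called genes named by the rule given with the methods, 22 kept their call in all 12 fits that left out 1 library, and none changed sign in any of them.

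NF-κB inhibitors are themselves induced by NF-κB and close its feedback loop. Of 14 tested feedback genes 5 rose and 0 fell, with a median of 0.65, against 0.002 over all genes tested. Nfkbia (chromosome 12, 55489410 to 55492647, minus strand), which encodes IκBα, had 189, 281 and 287 CPM in Ikkβca+Stat3KO libraries against 119, 125 and 116 CPM in Control libraries. The 3 Control values lay close together, and all were below the lowest Ikkβca+Stat3KO value. The rise was 1.07 ± 0.16 on the log2 scale (edgeR adjusted p = 0.0129), and the adjusted p reached 0.0654 when 1 library was left out (the call was lost without Control replicates 1 or 2 or Ikkβca+Stat3KO replicate 3). Tnip3, an A20-binding protein gene that Control epithelium barely expressed, had 2.50, 5.92 and 8.64 CPM against 0.0559, 0.209 and 0.0762 CPM. It rose by 5.59 ± 0.70 (edgeR adjusted p = 0.00424). Its relative Tnip1 rose by 0.94 ± 0.14 (edgeR adjusted p = 0.00965), to 51.9 ± 9.62 CPM against 27.1 ± 1.72 CPM (SD, n = 3). Zc3h12a, which encodes an RNase that degrades inflammatory mRNAs, had 103, 85.0 and 106 CPM against 42.7, 38.5 and 40.3 CPM, a rise of 1.27 ± 0.16 (edgeR adjusted p = 0.00488). Tnfaip3, which encodes the deubiquitinase A20, had 23.6, 29.9 and 48.0 CPM against 10.6, 15.1 and 6.48 CPM. Its rise of 1.66 ± 0.30 passed narrowly (edgeR adjusted p = 0.0322) and kept its call in 3 of the 12 fits without 1 library. Bcl3, an atypical IκB gene, was at -0.00 ± 0.34 with overlapping groups.

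Fewer of the subunit genes were called. Of 15 tested genes for Rel subunits and the IKK complex 2 rose and 0 fell (median 0.23), and both encode parts of the non-canonical dimer. Relb had 21.8, 38.7 and 36.9 CPM in Ikkβca+Stat3KO libraries and 11.8, 10.9 and 9.79 CPM in Control libraries, a rise of 1.58 ± 0.22 (edgeR adjusted p = 0.0079). Nfkb2, which encodes the precursor of p52, had 41.5, 61.6 and 63.5 CPM against 32.5, 33.5 and 30.1 CPM. It rose by 0.79 ± 0.16 (edgeR adjusted p = 0.0456), a call kept in 1 of the 12 fits without 1 library. For both genes replicate 1 was the lowest Ikkβca+Stat3KO library and still lay above every Control library. Among 14 survival and TRAF genes 2 rose and 0 fell (median 0.15): Birc3, an inhibitor of cell death, to 25.2 ± 3.91 CPM against 11.5 ± 2.04 CPM in Control (SD; edgeR adjusted p = 0.0164) and Tnfaip2 by 2.24 ± 0.37 (edgeR adjusted p = 0.0233). Both calls were lost without Control replicate 1, Control replicate 2 or Ikkβca+Stat3KO replicate 3, and that of Birc3 also without Ikkβca+Stat3KO replicate 2; the adjusted p reached 0.0679 for Birc3 and 0.139 for Tnfaip2. Over the 3 NF-κB lists together, 9 of 43 genes rose, 35 were above 0 and 19 were higher without overlap. Over all genes tested, 0.566% rose, 50.3% were above 0 and 7.2% were higher without overlap. The feedback, subunit and survival counts of 5, 2 and 2 were 2, 0 and 1 with library totals, and 1, 0 and 0 when only these 6 libraries were fitted. The feedback count was 3 without Control replicate 1, 3 without Control replicate 2 and 2 without Ikkβca+Stat3KO replicate 3. The subunit count was 0 without Control replicate 2 and 1 or 2 without any other library. The survival count was 0 without Control replicate 1, Control replicate 2 or Ikkβca+Stat3KO replicate 3, and 1 without Ikkβca+Stat3KO replicate 2.

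**Figure D2:**
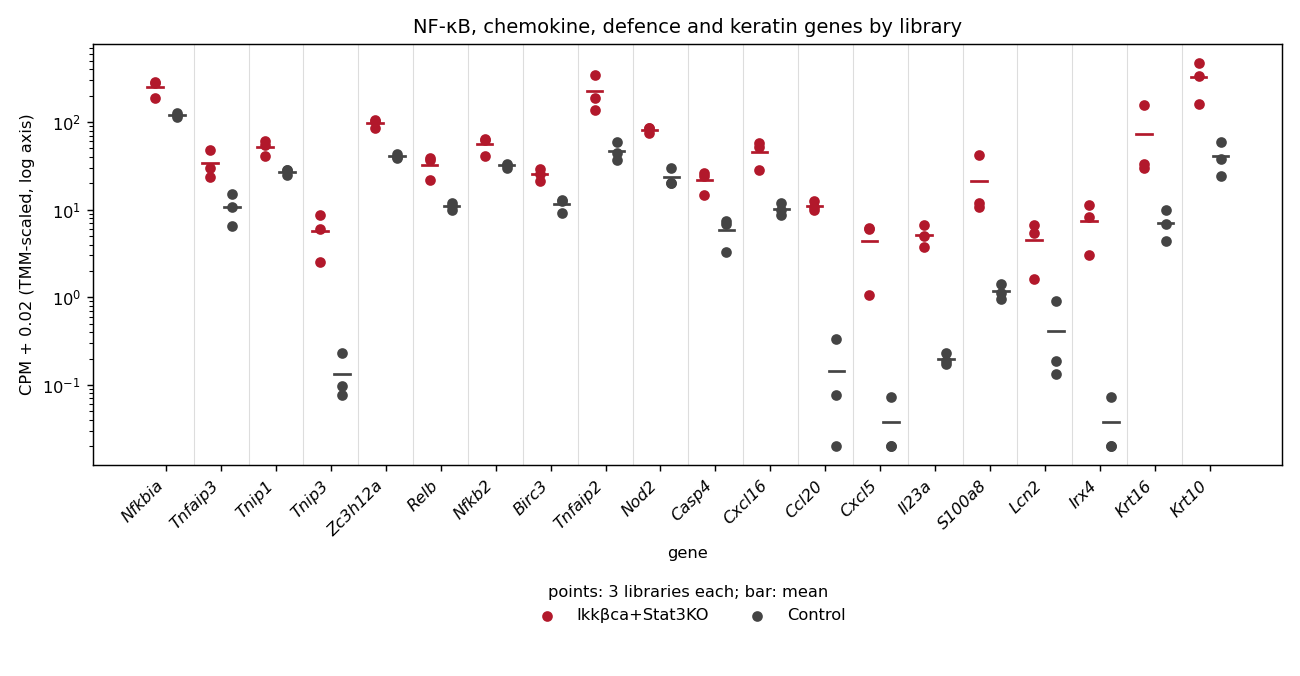
CPM of 20 called genes in each library (points; bars are means of 3 libraries), on a log axis with 0.02 added, Ikkβca+Stat3KO in red to the left of Control in dark grey. All 20 genes have every red point above every grey point; Ccl20, Cxcl5, Tnip3 and Irx4 are near 0 in Control, while Nfkbia and Krt10 are abundant in both groups.

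Promoter sequences were examined for the κB consensus, the DNA element bound by Rel dimers. Windows of 300 bases, 250 before the start and 50 after it, came from RefSeq (GRCm38.p6, the assembly of mm10) and were found for 59 of the 80 genes that rose. A match on either strand was present in 11 of these 59 (18.6%), in 1 of the 37 promoters of genes that fell (2.7%) and in 655 of 10016 promoters over all tested genes (6.54%). Among the feedback genes, 8 of 12 promoters held one. The 250 bases before the start are shown for Nfkbia, Tnfaip3 and Ccl20, chosen as called feedback and chemokine genes with a κB match before the start, which is in capitals. Zc3h12a, a called feedback gene, had no match in its window. They lie at chr12:55492648-55492897 on the minus strand, chr10:19015411-19015660 on the minus strand and chr1:83116516-83116765 on the plus strand. The capitals begin 29 bases before the start in Nfkbia, 125 and 12 bases before it in Tnfaip3 and 80 bases before it in Ccl20. A match describes the letters only, not binding.
Nfkbia: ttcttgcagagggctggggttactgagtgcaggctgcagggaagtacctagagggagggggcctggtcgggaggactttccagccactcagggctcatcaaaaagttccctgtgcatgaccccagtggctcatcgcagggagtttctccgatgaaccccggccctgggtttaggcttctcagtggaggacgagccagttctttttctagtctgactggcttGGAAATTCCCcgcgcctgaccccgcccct
Tnfaip3: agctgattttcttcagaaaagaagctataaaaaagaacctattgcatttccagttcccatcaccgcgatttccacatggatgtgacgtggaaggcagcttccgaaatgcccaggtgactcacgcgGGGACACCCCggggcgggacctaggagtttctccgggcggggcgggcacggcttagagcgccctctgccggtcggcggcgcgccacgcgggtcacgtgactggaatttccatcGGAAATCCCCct
Ccl20: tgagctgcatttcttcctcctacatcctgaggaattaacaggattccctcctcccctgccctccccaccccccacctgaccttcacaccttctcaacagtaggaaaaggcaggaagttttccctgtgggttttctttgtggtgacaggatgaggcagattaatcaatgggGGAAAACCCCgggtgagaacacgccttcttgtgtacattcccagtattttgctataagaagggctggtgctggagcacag

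Of 14 tested chemokine genes 3 rose and 0 fell, with a median of 1.22. Over all genes tested 0.566% rose and 0.318% fell, with a median of 0.002. Another 14 of the 28 listed genes were too low to test. Their counts over the 3 libraries went both ways, such as Cxcl3 (35 in Ikkβca+Stat3KO against 1 in Control) and Ccl5 (8 against 28). Ccl20 and Cxcl5 had few Control counts and passed the filter through the groups where they are high, which bears on the median. Ccl20, the ligand of Ccr6 on dendritic and IL-17-producing cells, had 9.76, 10.6 and 12.6 CPM in Ikkβca+Stat3KO libraries against 0.0559, 0.314 and 0 CPM in Control libraries. The Ikkβca+Stat3KO values were tight and far from the Control values, and the rise was 6.51 ± 0.83 (edgeR adjusted p = 0.0047). Cxcl5, an attractant of neutrophils, had 242 counts over the 3 Ikkβca+Stat3KO libraries against 1 over the 3 Control libraries. The ratio of scaled counts was 272, with an exact 95% counting interval of 48.3 to 10800 (edgeR adjusted p = 0.0056 for the rise). Cxcl16, the ligand of Cxcr6, had 28.6, 51.3 and 58.1 CPM against 8.55, 12 and 9.91 CPM, a rise of 2.18 ± 0.26 (edgeR adjusted p = 0.00488). These 3 calls held in all 12 fits that left out 1 library. Cxcl1, another neutrophil attractant, was higher in every Ikkβca+Stat3KO library but at low counts, and it did not pass (5.64 ± 1.57, edgeR adjusted p = 0.0615). Il23a, which encodes the p19 subunit of IL-23, also had few reads in Control, with 3.75, 6.74 and 5.03 CPM against 0.168, 0.209 and 0.152 CPM. Its rise of 4.84 ± 0.52 (edgeR adjusted p = 0.00214) made it the only called gene of 12 tested in the IL-23 and IL-17 list, and it was called in each of the 23 alternatives run. Another 11 of that list were too low to test. The IL-1, TNF and CSF family list had 0 of 18 called by edgeR and 1, higher, by DESeq2 (median 0.17).

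Antimicrobial and defence genes had 4 of 22 tested members higher and 0 lower (median 0.24), and another 7 were too low to test. Over all genes tested, 0.566% were higher and 0.318% lower (median 0.002). Chi3l1, which encodes a chitinase-like protein, had 39.5, 49.7 and 144 CPM in Ikkβca+Stat3KO against 0.615, 1.88 and 2.67 CPM in Control, a rise of 5.45 ± 0.62 (edgeR adjusted p = 0.00488). S100a8, a calprotectin subunit, had 10.8, 11.7 and 41.9 CPM against 1.40, 0.941 and 1.10 CPM. It rose by 4.22 ± 0.56 (edgeR adjusted p = 0.00706), and the adjusted p was 0.0543 without Control replicate 2. Replicate 3 was the highest Ikkβca+Stat3KO library for both genes. S100a9, which encodes the partner subunit, overlapped between the groups at 161, 36.0 and 144 CPM against 25.9, 20.9 and 50.8 CPM and did not pass (1.80 ± 0.60, edgeR adjusted p = 0.265). Noxo1, the organiser of the Nox1 oxidase, rose by 3.02 ± 0.34 (edgeR adjusted p = 0.00424) to 21.4 ± 5.18 CPM against 2.65 ± 1.34 CPM (SD, n = 3). Lcn2, a lipocalin that withholds iron-binding siderophores from bacteria, had 1.60, 6.62 and 5.39 CPM against 0.168, 0.888 and 0.114 CPM. It rose by 3.56 ± 0.70 (edgeR adjusted p = 0.0472) and kept its call in 2 of the 12 fits without 1 library. S100a8 is also a marker of neutrophils. The summed CPM of 13 neutrophil markers, S100a8 and S100a9 included, was 193.8, 63.19 and 202.8 in Ikkβca+Stat3KO and 37.01, 348.3 and 78.03 in Control. Ltf, a granule protein gene that glands also express, made up most of the sum in Control replicate 2, with 14.7, 13.1 and 4.08 CPM in Ikkβca+Stat3KO against 1.45, 320.2 and 4.65 CPM in Control (-3.35 ± 2.33, edgeR adjusted p = 0.696). Cxcr2, a chemokine receptor gene, overlapped at 7.51, 1.92 and 12 CPM against 8.0, 5.44 and 21.1 CPM. Both were singled out after their values were seen. The other 9 markers were too low to test, with at most 9 counts over the Ikkβca+Stat3KO libraries and at most 12 over the Control libraries, and Elane was at 0 in both. The part of neutrophil RNA in the S100a8 and chemokine values was not tested. The sensor gene Nod2 (75.3 to 85.5 CPM against 20.3 to 30.2 CPM, 1.79 ± 0.22, edgeR adjusted p = 0.00488) and the inflammatory caspase gene Casp4 (1.89 ± 0.29, edgeR adjusted p = 0.0153) also rose. Both were singled out after their values were seen.

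Of 20 tested keratins outside the basal set 2 rose and 0 fell (median 0.21), against 0.566% and 0.318% of all genes tested (median 0.002). Krt10, a keratin of keratinising epithelium such as epidermis, had 339, 161 and 469.9 CPM in Ikkβca+Stat3KO and 59.7, 24 and 38 CPM in Control, a rise of 3.0 ± 0.43 (edgeR adjusted p = 0.0134). Its call was lost without Control replicate 2, Control replicate 3 or Ikkβca+Stat3KO replicate 3 (adjusted p up to 0.0665). Krt16, a keratin of wounded and hyperproliferative epithelium, had 32.9, 30.2 and 155 CPM against 4.42, 6.85 and 9.87 CPM. Ikkβca+Stat3KO replicate 3 was the highest library, and the other 2 also lay above all Control libraries. The rise of 3.36 ± 0.57 (edgeR adjusted p = 0.0298) kept its call in 4 of the 12 fits without 1 library. Krt6b (2.80 ± 0.78) and Krt1 (2.19 ± 0.81) did not pass, with edgeR adjusted p of 0.191 and 0.335. The main layer keratins were not called either: the log2 fold changes were -0.35 ± 0.26 for Krt5, -0.44 ± 0.25 for Krt14, 0.15 ± 0.72 for Krt4 and 0.26 ± 0.59 for Krt13. Krt4 and Krt13 changed sign when single libraries were left out. None of the 20 basal layer genes (median -0.15), 32 cornified envelope genes (median 0.04) or 26 junction genes (median 0.04) was called by edgeR in either direction, and DESeq2 called 1 cornified envelope gene, higher. Krt6a and Krt6b, the Sprr2 cluster and MHC genes are near copies whose counts can be misplaced.

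The squamous transcription factor and Notch list held 2 rises and 0 falls among 30 tested genes, against 0.566% and 0.318% of all genes tested. Irx4, an Iroquois homeobox gene, had 415 counts over the Ikkβca+Stat3KO libraries against 1 over the Control libraries, a ratio of 466 (83.2 to 18500, exact 95% counting interval; edgeR adjusted p = 0.00141). In CPM these were 3.0, 8.13 and 11.2 against 0, 0.0523 and 0, so Control libraries held almost no reads of the gene while every Ikkβca+Stat3KO library counted it. Jag1, a Notch ligand gene, was abundant in both groups (166, 153 and 150.4 CPM against 106, 85.4 and 99.6 CPM) and rose by 0.69 ± 0.14 (edgeR adjusted p = 0.0481), a call kept in 1 of the 12 fits without 1 library.

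Of the 80 rises, 58 were in none of the 29 pathway and function lists. Vnn3, a vanin gene whose human relatives hydrolyse pantetheine, had 424 counts against 3, a ratio of 159 (54.0 to 773; edgeR adjusted p = 0.0019). Galnt6, an enzyme that starts mucin-type O-glycosylation, had 28.0, 27.2 and 62.5 CPM in Ikkβca+Stat3KO against 0.671, 1.83 and 1.49 CPM in Control, a rise of 4.87 ± 0.56 (edgeR adjusted p = 0.00488). Wnt10b, a ligand of canonical Wnt signalling, had 6.36, 10.4 and 10.8 CPM against 0.447, 0.366 and 0.305 CPM and rose by 4.62 ± 0.41 (edgeR adjusted p = 0.00141). Slc1a3, a glutamate transporter gene, had 21.8, 35.4 and 39.1 CPM against 2.35, 1.62 and 1.68 CPM and rose by 4.09 ± 0.31 (edgeR adjusted p = 0.00141). These 4 genes kept their calls in all 12 fits without 1 library. Genes with small spread within both groups, singled out after their values were seen, were Trnp1, a nuclear protein gene (37.2 ± 4.87 CPM against 12.8 ± 1.44 CPM, SD, n = 3; 1.55 ± 0.15, edgeR adjusted p = 0.00141), and Rassf6, of the Ras-association domain family (7.04 ± 1.30 CPM against 0.943 ± 0.195 CPM; 2.90 ± 0.27, edgeR adjusted p = 0.00141). Sox9, a transcription factor gene more typical of glandular and progenitor cells, had 12.5, 20.5 and 20.9 CPM against 4.58, 5.64 and 5.03 CPM (1.82 ± 0.34, edgeR adjusted p = 0.0412), and it was also chosen after its values were seen. Mill1, an MHC class I-like gene, had 88 counts against 0, at least 33.0-fold higher with a floor of 3 counts over the Control group. H2-M2, likewise class I-like, had 109 counts against 1 (ratio 122, 21.5 to 4880). Kcnf1, a potassium channel subunit gene, had 36 counts against 2 (ratio 20.2, 5.21 to 173), and these 3 were singled out after their values were seen. Counting intervals and floors cover counting error only.

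The largest group among the falls by the lists used here was the DNA replication machinery. Of 86 tested genes for origin licensing, DNA synthesis, nucleotide supply and DNA repair, 25 fell and 0 rose, 84 were below 0 and 59 were lower without overlap. Their median was -0.75. Over all genes tested, 0.318% fell, 50.3% were above 0 and 7.85% were lower without overlap. The same shares are the background of each of the 4 lists below. The other 20 of the 45 falls are outside these 4 lists.

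Licensing places the MCM helicase on replication origins before S phase. Of 25 tested licensing and helicase genes 11 fell and 0 rose (median -1.03), and 17 were lower without overlap. Orc1, which encodes the largest subunit of the origin recognition complex, had 1.0, 1.57 and 1.26 CPM in Ikkβca+Stat3KO libraries against 7.83, 10.2 and 5.14 CPM in Control libraries. It fell by 2.60 on the log2 scale (SE 0.36, edgeR adjusted p = 0.0092), and the adjusted p was 0.0562 without Ikkβca+Stat3KO replicate 3. The loaders Cdc6 (2.98 ± 0.811 CPM against 11.5 ± 3.45 CPM) and Cdt1 (15.5 ± 5.58 CPM against 51.8 ± 16.8 CPM; SD, n = 3) changed by -1.94 ± 0.30 and -1.74 ± 0.29, with edgeR adjusted p of 0.0157 and 0.021. Each was lost in 4 of the 12 fits without 1 library. Mcm3, a subunit of the helicase ring, had 25.6, 29.7 and 20.9 CPM against 104, 141 and 65.2 CPM, and changed by -2.02 ± 0.27 (edgeR adjusted p = 0.00671). Mcm2, Mcm4, Mcm5 and Mcm6 fell beside it, by 1.48 (Mcm4) to 1.86 (Mcm2) on the log2 scale, with edgeR adjusted p of 0.0056 to 0.00706. All 5 kept their calls in every fit that left out 1 library. Mcm7, the sixth ring subunit, was at -1.03 ± 0.22 and did not pass (edgeR adjusted p = 0.063). Control replicate 3, the Control library richest in Krt4 and Krt13, was the lowest Control library for Mcm2 to Mcm7, and all Ikkβca+Stat3KO libraries still lay below it.

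DNA synthesis genes had 10 of 30 members lower and 0 higher (median -0.81). All 30 were below 0, and 26 were lower without overlap. Uhrf1, which guides DNA methylation to replicated strands, had 25.1, 16.9 and 19.8 CPM against 72.1, 106 and 51.7 CPM (-1.89 ± 0.26, edgeR adjusted p = 0.0079). Pcna, the sliding clamp of the polymerases, had 33.2, 35.4 and 27.8 CPM against 63.8, 68.7 and 51.1 CPM, and changed by -0.93 ± 0.15 (edgeR adjusted p = 0.0153). Timeless, of the fork protection complex (-1.59 ± 0.26), Chaf1b, a histone chaperone subunit (-1.87 ± 0.33), and Rfc1, of the clamp loader (-0.51 ± 0.09), also fell. Each of them, like Pcna, lost its call in 3 to 5 of the 12 fits that left out 1 library. In nucleotide supply 2 of 14 genes fell (median -0.59), among them the ribonucleotide reductase gene Rrm2 by 1.35 (SE 0.23). The nucleotide count was 0 without Control replicate 1, Control replicate 2 or Ikkβca+Stat3KO replicate 3, 1 without Ikkβca+Stat3KO replicate 1 or 2, and 4 without Control replicate 3. In DNA repair 2 of 17 fell (median -0.45), among them the exonuclease gene Exo1 by 1.57 (SE 0.25), and the count was 0 or 1 in 8 of the 12 fits without 1 library. Ung, the uracil-DNA glycosylase gene, is in none of these lists and fell by 2.26 (SE 0.29), to 6.21, 7.67 and 4.40 CPM against 29.9, 39.5 and 18 CPM (edgeR adjusted p = 0.0056). Dtl, which recruits the ligase that destroys Cdt1, had 7.46, 8.25 and 6.44 CPM against 27.9, 32.8 and 18.6 CPM (-1.84 ± 0.22, edgeR adjusted p = 0.00456). Ung and Dtl were called in every fit without 1 library.

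**Figure D3:**
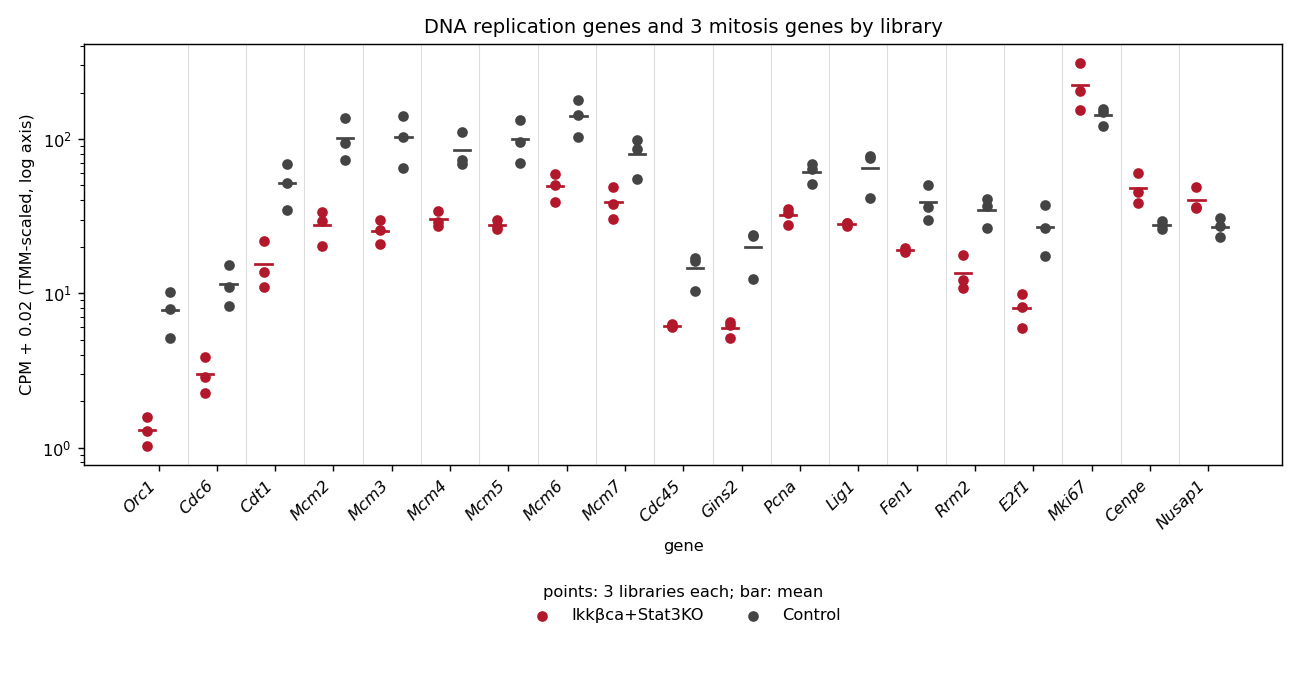
CPM of 16 DNA replication genes and 3 genes of mitosis in each library (points; bars are means of 3 libraries), on a log axis with 0.02 added, Ikkβca+Stat3KO in red to the left of Control in grey. Every replication gene has its 3 red points below its 3 grey points (Mcm7 was not called), whereas Cenpe and Nusap1 lie higher in Ikkβca+Stat3KO and Mki67 overlaps, and none of these 3 was called.

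The counts in these lists depended on which libraries were in the fit. Licensing genes numbered 7 and 6 lower without Control replicate 1 and Control replicate 2, 5 without Ikkβca+Stat3KO replicate 3, and 13 without Control replicate 3. DNA synthesis genes numbered 1 and 1 without Control replicate 1 and Control replicate 2, and 3, 4 and 2 without Ikkβca+Stat3KO replicates 1 to 3, against 19 without Control replicate 3. With a replicate block the synthesis count was 5 and the DNA repair count 1. With library totals in place of TMM factors the licensing and synthesis counts were 6 and 1, and they were 0 and 0 when Ikkβca and Stat3KO were dropped from the fit. With the Krt4 and Krt13 share as a term they were 14 and 22. The medians moved less, and ranged from -1.24 to -0.85 for licensing and from -0.97 to -0.72 for synthesis over the alternatives run.

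E2f1, which encodes a transcription factor of S phase genes, fell as well, and E2F sites were also looked for in promoters. E2f1 had 8.16, 9.87 and 5.91 CPM in Ikkβca+Stat3KO and 26.4, 37.3 and 17.4 CPM in Control (-1.76 ± 0.27, edgeR adjusted p = 0.0153), the only gene of 30 in the G1 control list that edgeR called. It was lost in 4 of the 12 fits without 1 library, while DESeq2 called 5 genes of the list lower and the fit with the Krt4 and Krt13 term 4. The letters searched were TTTCCCGC, TTTCGCGC, TTTGCCGC and TTTGGCGC on both strands. They were present in 12 of 37 promoters of genes that fell (32.4%), 1 of 59 of genes that rose (1.69%) and 439 of 10016 over all tested genes (4.38%). In licensing genes the share was 10 of 19, in DNA synthesis genes 9 of 26, and in genes of mitosis 1 of 26. A match describes the letters only, not binding, and the part of E2f1 in the falls was not tested. STAT-type GAS sites (TTCNNNGAA) were present in 3 of 37 promoters of genes that fell (8.11%), in 8 of 59 of genes that rose (13.6%) and in 837 of 10016 over all tested genes (8.36%). Shown are the 250 bases before the start of Mcm5, Mcm6 and Orc1 from RefSeq (GRCm38.p6), with E2F letters in capitals; a run longer than 8 capitals is made of overlapping matches on the 2 strands. They lie at chr8:75109259-75109508 on the plus strand, chr1:128359706-128359955 on the minus strand and chr4:108579204-108579453 on the plus strand.
Mcm5: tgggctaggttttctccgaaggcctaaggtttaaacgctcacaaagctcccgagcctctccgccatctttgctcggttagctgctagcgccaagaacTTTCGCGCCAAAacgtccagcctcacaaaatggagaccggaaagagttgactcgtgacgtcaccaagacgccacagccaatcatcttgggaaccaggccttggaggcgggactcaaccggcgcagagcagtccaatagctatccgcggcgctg
Mcm6: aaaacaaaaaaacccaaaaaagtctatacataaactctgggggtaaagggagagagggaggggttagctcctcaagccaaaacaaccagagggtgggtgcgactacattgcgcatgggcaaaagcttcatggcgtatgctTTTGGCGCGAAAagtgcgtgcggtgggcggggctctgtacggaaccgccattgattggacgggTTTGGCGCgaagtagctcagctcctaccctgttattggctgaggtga
Orc1: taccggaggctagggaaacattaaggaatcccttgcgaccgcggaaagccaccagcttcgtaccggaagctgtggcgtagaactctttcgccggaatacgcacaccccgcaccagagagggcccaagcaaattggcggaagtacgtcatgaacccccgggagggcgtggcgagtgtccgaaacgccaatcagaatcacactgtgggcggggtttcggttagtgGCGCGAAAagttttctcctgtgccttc

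Genes of G2 and mitosis did not fall with replication genes. None of the 33 tested was called by edgeR or by DESeq2, 30 were above 0 and the median was 0.29. Mki67, a marker of cycling cells, had 206, 154 and 310.0 CPM in Ikkβca+Stat3KO against 121, 157 and 148 CPM in Control (0.65 ± 0.26, edgeR adjusted p = 0.347). Cenpe, a kinetochore motor gene, had 45.1, 38.5 and 60.2 CPM against 26.0, 27.9 and 29.2 CPM (0.79 ± 0.24, edgeR adjusted p = 0.196). Ikkβca+Stat3KO replicate 3 was the highest library for both, and without it the median of the list was 0.06 with 11 of the 33 below 0. In G1 control the cyclin genes Ccne1 (-1.18 ± 0.26, edgeR adjusted p = 0.075) and Ccnd1 (-0.90 ± 0.29, edgeR adjusted p = 0.246) did not pass, and the list median was -0.30.

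**Figure D4:**
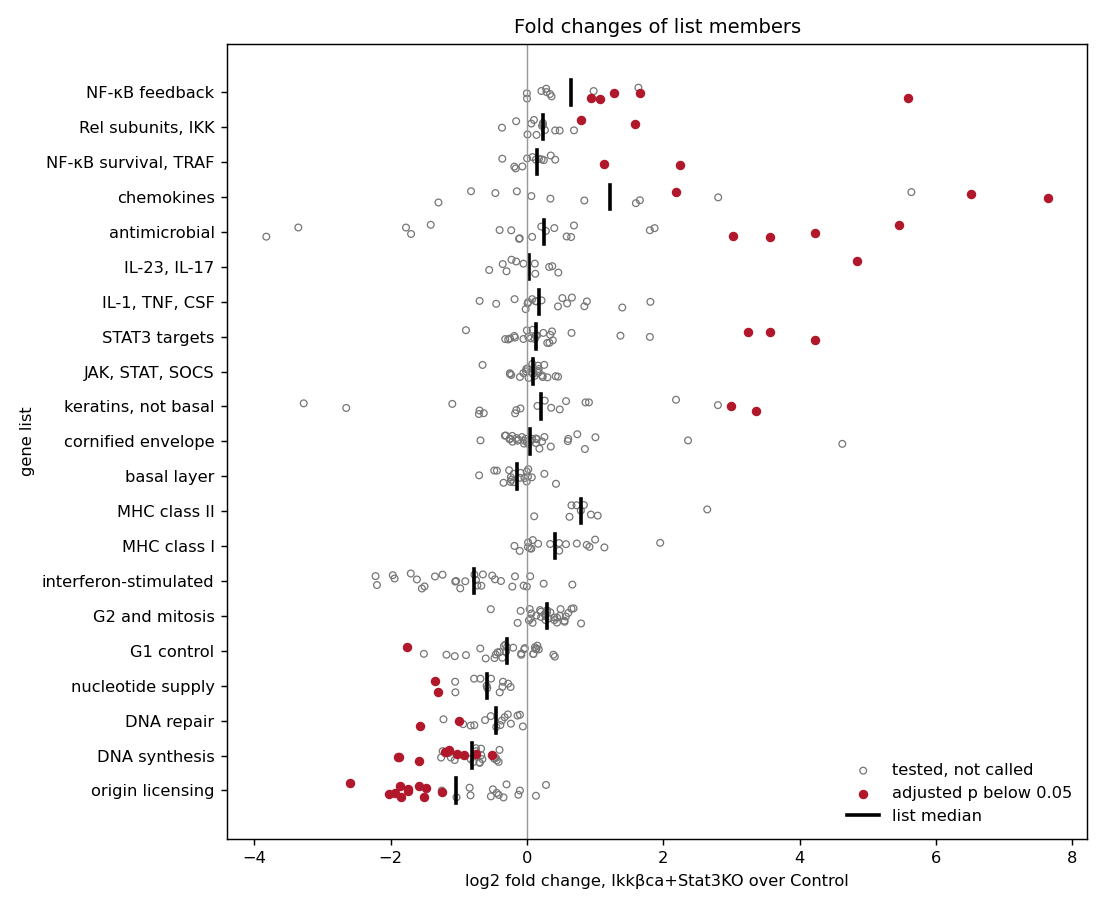
Log2 fold changes, Ikkβca+Stat3KO over Control, of every tested member of 21 gene lists (rows); filled red points passed the test, open points did not, and black bars are list medians. Called rises lie in NF-κB, chemokine, antimicrobial, IL-23, STAT3 target and keratin lists, 21 of the 45 called falls lie in the licensing and DNA synthesis lists, and G2 and mitosis genes lie to the right of 0 with none called.

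STAT3-linked genes did not lean lower than in Control by their list medians. The 26 tested STAT3 targets had 3 rises and 0 falls (median 0.14), 18 were above 0 and 7 were higher without overlap. Over all genes tested, 0.566% rose, 0.318% fell, 50.3% were above 0 and 7.2% were higher without overlap. With so few falls among all genes, 0 falls says little about a list of this size. S100a8 and Lcn2 are shared with the antimicrobial list, and the third was Steap4, a metalloreductase gene, which had 35.2, 51.6 and 67.1 CPM in Ikkβca+Stat3KO against 3.8, 7.58 and 4.88 CPM in Control (3.24 ± 0.31, edgeR adjusted p = 0.00186). Socs3, the feedback inhibitor that STAT3 induces, overlapped at 39.2, 66.1 and 26.4 CPM against 64.7, 50.2 and 41.9 CPM (-0.25 ± 0.30, edgeR adjusted p = 0.849). The JAK, STAT and SOCS list had 0 called of 23 (median 0.09), and the IL-6 family 0 of 10 (median 0.14). Active IKKβ also differs in this comparison, and its part in the STAT3 target values was not tested. In Ikkβca against Control the target list had 4 rises and a median of 0.29. Against Ikkβca, Ikkβca+Stat3KO had 0 targets called and a median of -0.25. There the log2 fold changes were -2.56 for S100a8, -1.94 for Lcn2 and -0.54 for Steap4, and none passed.

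Several lists leaned without a called gene. Interferon-stimulated genes had a median of -0.77 with 26 of 29 below 0 and 0 called by edgeR or DESeq2. Of the 29, 6 were lower without overlap, against 7.85% of all genes tested. Isg15, a ubiquitin-like effector, had 3.15, 2.32 and 1.52 CPM in Ikkβca+Stat3KO against 5.31, 9.83 and 4.76 CPM in Control (-1.50 ± 0.56, edgeR adjusted p = 0.317). MHC class II genes had a median of 0.79 with all 9 tested above 0 and 0 called, 1 by DESeq2; the class II beta chain gene H2-Ab1 overlapped at 68.4, 163 and 102 CPM against 68.3, 89.7 and 43.5 CPM. MHC class I and peptide-loading genes had a median of 0.40 with 16 of 18 above 0 and 0 called, 2 by DESeq2. AP-1 and immediate early genes (median 0.48, 0 of 16) and sterol and lipid synthesis genes (median 0.07, 0 of 30) had none called by edgeR or DESeq2. Clock genes (median -0.48) had 0 of 19 called by edgeR and 1, higher, by DESeq2, and 2 without Ikkβca+Stat3KO replicate 2. Dendritic cell markers, which share antigen presentation with class II, had a summed CPM of 128.5, 168.5 and 160.5 against 113.3, 123.2 and 116.2, and their part in the class II values was not tested.

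Among the falls outside replication were Cyp1b1, Pdgfb, H19, Foxd1 and Rbp4. Cyp1b1, a cytochrome P450 induced through the aryl hydrocarbon receptor, had 0.601, 0.697 and 0.419 CPM in Ikkβca+Stat3KO against 2.40, 5.54 and 9.56 CPM in Control (-3.35 ± 0.52, edgeR adjusted p = 0.0157). It was the only called gene of 23 in the aryl hydrocarbon receptor and Nrf2 list, with its call lost without Control replicate 2 or Ikkβca+Stat3KO replicates 1 or 3. Pdgfb, a growth factor for mesenchymal cells, had 14.5, 18.6 and 10.8 CPM against 30.9, 34.6 and 32.0 CPM (-1.15 ± 0.22, edgeR adjusted p = 0.0442) and kept its call in 3 of the 12 fits; it was the only called gene of 22 growth factors. The others were singled out after their values were seen. H19, an imprinted non-coding RNA, had 279.6, 355 and 331 CPM against 1046, 847 and 646 CPM, a change of -1.40 ± 0.21 (edgeR adjusted p = 0.0121). Foxd1, a forkhead gene known from stromal cells, had 0.200, 0.0581 and 0 CPM against 1.73, 2.72 and 0.914 CPM (-4.25 ± 0.87, edgeR adjusted p = 0.0322). Rbp4, the retinol carrier of plasma, was at 0.357 ± 0.162 CPM against 2.32 ± 0.355 CPM (SD, n = 3; -2.68 ± 0.46, edgeR adjusted p = 0.0217).

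Markers of stroma differed in the same direction as these falls. All 12 fibroblast markers were below 0 (median -0.99, 0 called), with summed CPM of 807.7, 1539 and 713.7 in Ikkβca+Stat3KO against 935.9, 2805 and 2110 in Control, and the part of stromal RNA in the falls of Foxd1, Pdgfb and Cyp1b1 was not tested. Smooth muscle markers (median -0.62, 9 of 9 below 0), adipocyte markers (-6.52, 6 of 6) and nerve markers (-2.10, 7 of 8) were also lower on balance with none called. Lower without overlap were 6 of 9 smooth muscle, 5 of 8 nerve and 0 of 12 fibroblast markers, against 7.85% of all genes tested. Smooth muscle markers summed to 1410, 2092 and 1586 CPM in Ikkβca+Stat3KO against 2207, 2362 and 2872 CPM in Control. The part of smooth muscle and nerve RNA in the falls was not tested. Adipocyte markers were highest in Control replicate 2 (169.0 CPM in sum) and nerve markers in Control replicate 3 (414.3 CPM). Endothelial (-0.36), skeletal muscle (-0.44), macrophage (-0.17), gastric (4 of 4 below 0), mast cell and eosinophil (-1.28) and erythroid markers (-0.84) had no called member, nor had T and NK cell (0.01), dendritic (0.32), B cell (3.20, 1 gene tested) and squamous markers (0.03). Neutrophil markers had S100a8 as the called gene of 4 tested (median 0.55).

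Where Ikkβca+Stat3KO stood relative to each single genotype was tested in the same fit. Against Ikkβca, edgeR called 0 genes (0% of genes tested), with 1396 (9.88%) at an unadjusted p below 0.05, and DESeq2 called 125, 49 higher and 76 lower. Against Stat3KO, 58 genes rose (0.41%) and 7 fell (0.0495%). Without any 1 of 9 libraries (Control replicates 1 and 2, Ikkβca replicates 2 and 3, Stat3KO replicates 1 to 3, Ikkβca+Stat3KO replicates 2 and 3) the number of calls against Stat3KO was 20 to 42. The test of whether both changes together departed from the sum of the single changes called 0 genes (0%), with 658 (4.66%) at an unadjusted p below 0.05 and 5, all lower, by DESeq2. The comparisons share libraries, so levels are given side by side. Ccl20 averaged 11 ± 1.43 CPM in Ikkβca+Stat3KO, 2.51 ± 0.883 in Ikkβca, 0.135 ± 0.121 in Stat3KO and 0.123 ± 0.167 in Control (SD, n = 3 each). Its difference from Stat3KO passed (edgeR adjusted p = 0.00552) and that from Ikkβca did not (edgeR adjusted p = 0.353). S100a8 averaged 21.5 ± 17.7 CPM in Ikkβca+Stat3KO, 126 ± 56.4 in Ikkβca, 1.94 ± 0.278 in Stat3KO and 1.15 ± 0.232 in Control. Again the difference from Stat3KO passed (edgeR adjusted p = 0.023) and that from Ikkβca did not (edgeR adjusted p = 0.218). Several other rises lay closer to Ikkβca than Ccl20 and S100a8 did. Means in Ikkβca+Stat3KO and Ikkβca were 7.46 and 7.89 CPM for Irx4, and 5.17 and 4.19 for Il23a. They were 9.2 and 8.42 for Wnt10b, 32.1 and 34.3 for Slc1a3, and 46.01 and 46.85 for Cxcl16. Krt16 and Lcn2 averaged less than in Ikkβca, at 72.65 against 202.7 CPM and 4.54 against 17.4 CPM. Mcm3 averaged 25.4 ± 4.40 CPM in Ikkβca+Stat3KO, 69.9 ± 10.8 in Ikkβca, 37.4 ± 8.70 in Stat3KO and 103 ± 38.0 in Control. Ikkβca+Stat3KO was the lowest of the 4 groups, but its differences from Stat3KO (edgeR adjusted p = 0.584) and Ikkβca (edgeR adjusted p = 0.218) did not pass. Orc1 followed the same order, at 1.27 ± 0.284, 5.90 ± 1.80, 2.42 ± 0.770 and 7.74 ± 2.55 CPM in Ikkβca+Stat3KO, Ikkβca, Stat3KO and Control. Of the 25 licensing genes 0 were called against either single genotype, with medians of -0.39 against Ikkβca and -0.18 against Stat3KO. In NF-κB feedback 4 of 14 genes were higher than in Stat3KO (median 0.79) and 0 differed from Ikkβca (median 0.02).

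**Figure D5:**
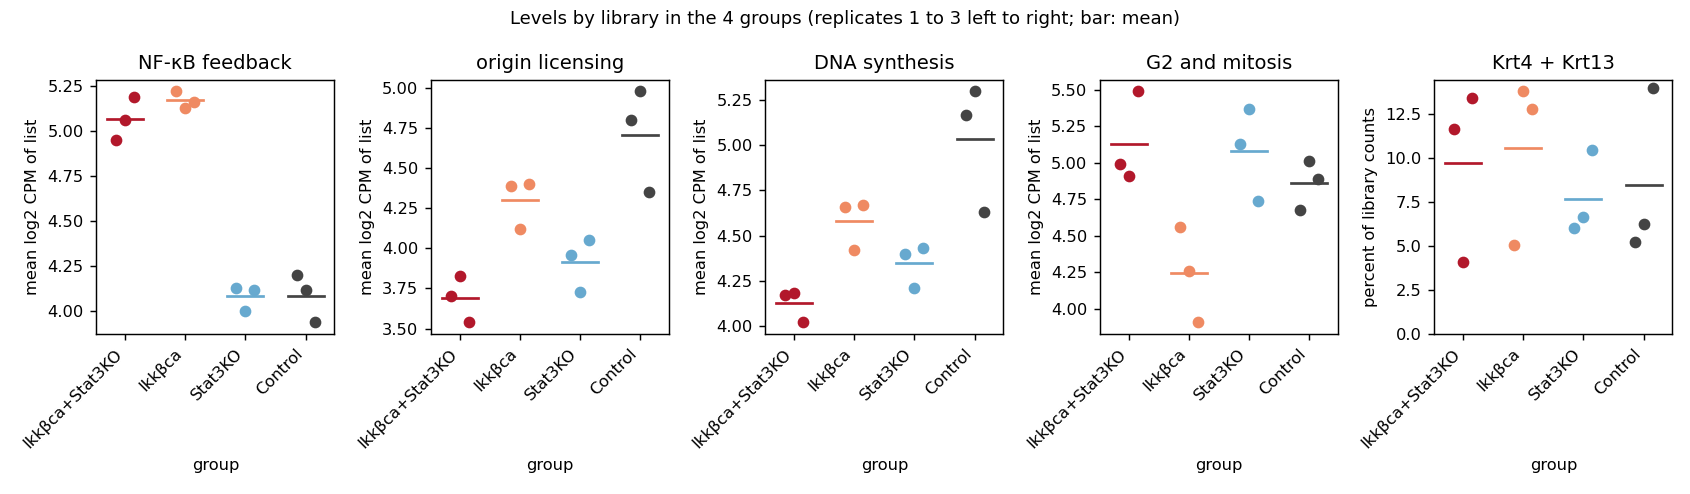
Mean log2 CPM of the NF-κB feedback, origin licensing, DNA synthesis, and G2 and mitosis lists, and the percentage of counts taken by Krt4 and Krt13, in each library (points, replicates 1 to 3 from left to right; bars are means of 3 libraries) for Ikkβca+Stat3KO, Ikkβca, Stat3KO and Control. NF-κB feedback genes lie at 4.95 to 5.19 in Ikkβca+Stat3KO and 3.94 to 4.20 in Control, licensing genes at 3.54 to 3.83 and 4.35 to 4.98, and G2 and mitosis genes overlap.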

How the data were processed

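Gene counts were deposited by the authors as 1 table of raw counts per library; per the submitters' processing notes, cutadapt 1.13, STAR, HTSeq 0.6.1p1 and DESeq2 were used with mm10, and whether counting used strand is not given in the sources used here. All 12 libraries (4 groups of 3) were fitted together with edgeR 4.0.16 (limma 3.58.1, R 4.3.3) after filterByExpr, which kept 14134 of 23337 symbols. Normalisation was TMM, and the test was the robust quasi-likelihood F-test (common dispersion 0.0878, median prior degrees of freedom 3.04, prior count 0.125 for fold changes), with Benjamini-Hochberg adjustment over all genes and a threshold of 0.05. Alternatives included DESeq2 1.42.0. The fit was tested on simulated data. No pair among the 6 Ikkβca+Stat3KO and Control libraries was a copy by a chi-square test of counts; pairs with other libraries were not compared. The genes named are the 12 highest and 12 lowest called genes whose average log2 CPM is 1 or more and whose groups do not overlap, up to 4 per list by adjusted p, and a few always named; others are said to be singled out. Of 854 list memberships, 844 were found. Members and lists were chosen with earlier results of these data known. Positions are from GENCODE M21. Some called genes are not reported here.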

Additional observations from a re-analysis of the deposited data

How the results depend on the processing

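Calls of the comparison with Control stayed within 1.5 times of 125 with DESeq2 size factors (127), without a count filter (116), with a filter of 1 CPM in 3 libraries (129), without robust estimation (123), with a sex term (133) and with the newer edgeR method, added after seeing the data (134). They were 53 with library totals, 434 with the DESeq2 Wald test, 14 with only the 6 libraries and 432 with the Krt4 and Krt13 term, and ranged from 43 to 147 when 1 library was left out (59 higher and 88 lower without Control replicate 3). The 65 calls against Stat3KO became 29, 286, 16 and 218 in the same 4 fits and ranged from 20 to 81. Against Ikkβca the 0 calls became 125 with DESeq2 and 32 with the Krt4 and Krt13 term, and ranged from 0 to 1 without 1 library. The departure from the sum of single changes had 5 calls with DESeq2. With DESeq2 the called members were 23 for DNA synthesis, 4 for nucleotide supply, 4 for DNA repair and 5 for chemokines. The cause of these differences was not tested. The 6-library fit has fewer libraries to estimate the spread and another set of tested genes (13493), and the part of either was not tested. The labels give every group replicates 1 to 3 without saying that the numbers are pairs, and the main fit did not take them as pairs. Deviations of same-numbered Ikkβca+Stat3KO and Control libraries correlated at 0.089, 0.454 and 0.418. Those of differently numbered libraries correlated at -0.543 to 0.286. Same-numbered libraries were also alike in Krt4 and Krt13 share for replicate 2 (4.05% in Ikkβca+Stat3KO, 6.22% in Control) and replicate 3 (13.4 and 13.9%). The part of this share in the correlations was not tested. So few libraries cannot decide whether the numbers are pairs. With a replicate block, 125 genes were called, 77 higher and 48 lower, 104 of them among the 125, and 71, 0 and 0 in the other comparisons. No called gene changed sign in any fit. Genes that were not called did: Bcl3 was at 0.0027 with the sex term, and Stat3 and Krt4 at -0.0135 and -0.1083 with the Krt4 and Krt13 term. Without 1 library, the log2 fold change ranged from -0.2964 to 0.9924 for Krt4, -0.0572 to 0.9068 for Krt13, -2.8599 to 0.3097 for Cldn7, -3.7505 to 0.4267 for Cldn3, -0.0797 to 0.0987 for Stat3, -0.5763 to 0.2479 for Sc5d, -0.2934 to 0.2138 for Bcl3, -0.0789 to 0.4395 for Acaca and -0.669 to 0.0076 for Socs3. With 3 libraries a group and a smallest exact permutation p of 0.1, single genes rest on the spread shared across genes, and genes with few reads have wide counting intervals.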
